A study of Mus musculus with 15 samples.

Results

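Lymphatic endothelial cells sorted from melanomas were compared with lymphatic endothelial cells sorted from the lymph nodes that drain the tumors, by RNA sequencing of 5 libraries of each kind. These 10 libraries, of 15 in the series, were taken by their group label, and the comparison covered the 13887 of 21839 genes that passed a filter on low counts. All mice were labelled C57bl/6 and 10 weeks old, and all carried a transplanted mouse melanoma line that is described as lymphangiogenic. The group labelled Tumor came from the tumor itself and the group labelled TdLN from the tumor-draining lymph node, and no genotype or agent is named for either. The remaining group, NdLN, came from a non-draining node. It entered the filter on low counts, the scaling of the libraries and the shared estimate of spread, but not the contrast. The sort kept cells without CD45, the leukocyte protein made from Ptprc, that carried CD31 and gp38, made from Pecam1 and Pdpn. The sources used here do not say whether a library held 1 animal or a pool, so p-values measure only the spread between these libraries.

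Lymphatic endothelium lines the vessels that carry fluid, antigen and leukocytes from tissues to lymph nodes, and inside the node it lines the sinuses. The sinus ceiling faces the capsule, the sinus floor faces the lymphoid tissue, and medullary sinuses lead to the exit. In the node these cells receive lymphotoxin and RANK signals through NF-kB, feed macrophages, and take up antigens and chemokines through scavenger receptors. Lymphatic vessels of peripheral tissues and tumors are mostly capillaries, which grow when VEGF-C binds its receptor Flt4.

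Total counts were 32134127 to 37043976 in the TdLN libraries and 34577494 or fewer in the Tumor libraries, with Tumor 1 the shallowest at 23830337. Across genes, log2 CPM (the count of a gene scaled by library total and TMM factor) correlated at 0.937 to 0.974 between TdLN libraries, at 0.939 to 0.969 between Tumor libraries and at 0.706 to 0.771 between the groups. The first principal component separated the groups and held 75.9% of the variance. The sources used here do not give the sequencing pool of each library, and its effect was not tested.

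Most tested genes differed between tumor and node. By the quasi-likelihood test of edgeR, 8614 of 13887 genes (62.0%) changed at an adjusted p under 0.05, 4434 higher in Tumor (31.9%) and 4180 lower (30.1%). Against a fold of 2, edgeR's glmTreat called 3525 genes (25.4%), 1741 higher (12.5%) and 1784 lower (12.8%). For 6467 genes (46.6%) the 5 Tumor libraries did not overlap with the 5 TdLN libraries. With so many genes called, the count for a gene list is read against these shares. Below, "rose" and "fell" stand for an adjusted p under 0.05 in edgeR's quasi-likelihood test, levels are in CPM, and log2 fold changes are Tumor minus TdLN with their SE. A value in parentheses or after "with" is such a log2 fold change on the library scale, that is relative to each library's own scaled total, unless another quantity is named.

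The Tumor libraries held abundant transcripts of pigment cells, the cell type of the transplanted line. The 13 melanosome genes took 4.09%, 3.41%, 2.77%, 3.82% and 4.30% of all counts in Tumor libraries 1 to 5. In the TdLN libraries they took 0.00397%, 0.00489%, 0.00526%, 0.00535% and 0.00677%. The means, 3.68% ± 0.608 and 0.00525% ± 0.00101 (SD, n = 5), differed with an exact two-sided permutation p of 0.00794, the smallest that 5 against 5 libraries can give. The share of all RNA that came from pigment cells was not estimated. All 13 genes rose, and none had overlapping libraries. Pmel, the scaffold protein of the melanosome (ENSMUSG00000025359, chromosome 10 from 128704195 to 128720238 on the plus strand), stood at 2.31, 1.54, 1.93, 5.97 and 8.57 CPM in TdLN libraries 1 to 5. In Tumor libraries 1 to 5 it stood at 15063, 11838, 9505, 13494 and 15537 CPM, a log2 fold change of 11.65 ± 0.64. The lowest Tumor library was Tumor 3, for this gene as for the whole list.

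Enzymes of melanin synthesis followed. Tyr, tyrosinase, was at 1.41, 1.00, 4.23, 4.84 and 3.54 CPM in the TdLN libraries and at 261, 275, 247, 333 and 282 CPM in the Tumor libraries. The related enzyme genes Dct and Tyrp1 rose with log2 fold changes of 12.33 ± 0.92 and 12.42 ± 0.97. Oca2, a melanosome transporter, had the highest value of the list, 12.55 ± 0.56. Rab32, a transport GTPase also used by other cells, had the lowest (1.42 ± 0.13). In pigment cells Mitf, a transcription factor, binds short DNA elements that hold CATGTG. The promoter windows of RefSeq (GRCm38.p6), the 250 bases before a gene's start, were read on both strands. CATGTG was in 6 of the 9 melanosome genes with a window, and in 13.8% of all 27025 genes with one. The windows of Tyr (chr7:87493513-87493762, minus strand) and Tyrp1 (chr4:80833963-80834212, plus strand) are printed because both genes rose from a few CPM or less. Capitals mark the motif, which ends 15 bases before the start of Tyr and 40 bases before the start of Tyrp1.
Tyr: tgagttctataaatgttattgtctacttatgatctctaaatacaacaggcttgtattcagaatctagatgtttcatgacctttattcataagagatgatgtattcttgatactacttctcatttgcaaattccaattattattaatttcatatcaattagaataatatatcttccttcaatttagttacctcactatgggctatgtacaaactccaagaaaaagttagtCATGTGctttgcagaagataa
Tyrp1: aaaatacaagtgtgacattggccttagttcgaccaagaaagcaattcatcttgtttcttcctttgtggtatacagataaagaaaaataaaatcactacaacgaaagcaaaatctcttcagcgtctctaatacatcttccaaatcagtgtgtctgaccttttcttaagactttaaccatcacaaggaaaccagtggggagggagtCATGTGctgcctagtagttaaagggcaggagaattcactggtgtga

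Regulators of the pigment lineage split. Of 11 such genes 7 rose, 2 fell and 2 did not pass, with a median log2 fold change of 5.58. Sox10, the factor that specifies the lineage, was at 0.00, 0.00, 0.173, 0.00 and 0.158 CPM in TdLN and at 52.5, 166, 156, 198 and 262 CPM in Tumor libraries. Pax3, which acts with it, was at 0.00, 0.00, 0.00, 0.0563 and 0.158 CPM in TdLN and at 69.2, 80.3, 68.3, 99.3 and 118 CPM in Tumor libraries. S100b, a calcium-binding protein of the lineage, had the highest log2 fold change of the 11 (11.29 ± 0.59), and Mitf rose from 2.60 ± 0.956 to 124 ± 38.1 CPM (SD, n = 5). Sox10 was lowest in Tumor 1, in which the melanosome share was among the highest. The 2 that fell were the endothelin receptor gene Ednrb, from 478 ± 60.2 to 116 ± 62.7 CPM, and the neurotrophin receptor gene Ngfr, from 10.6 ± 6.09 to 0.759 ± 1.06 CPM. Kit and Erbb3 did not pass, with log2 fold changes of -0.52 ± 0.36 and 0.85 ± 0.42, though Erbb3 was called higher without Tumor 1 (1.06).

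**Figure D1:**
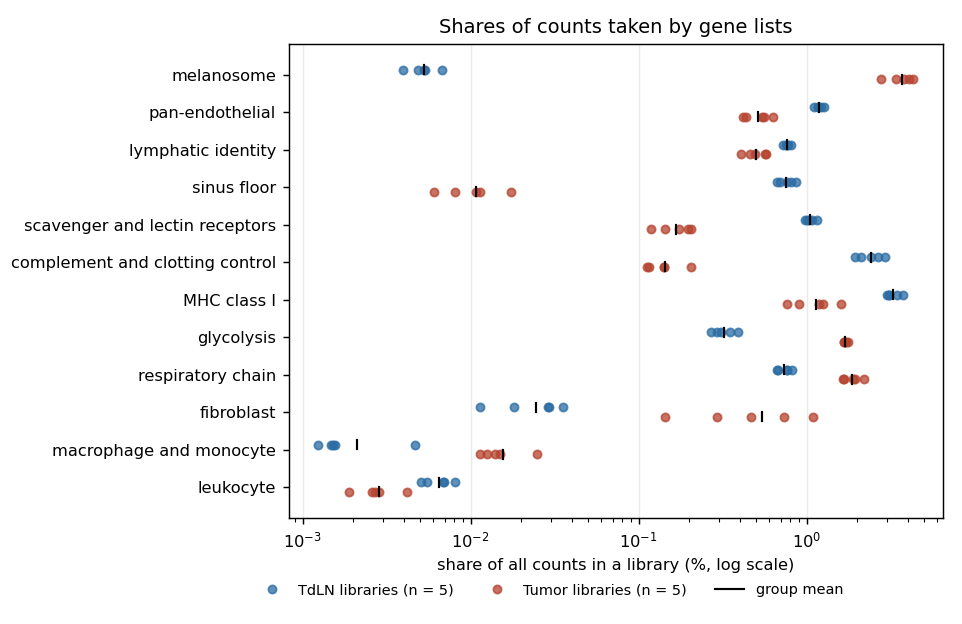
Share of all counts (%, log axis) that 12 gene lists took in each library, with 5 TdLN libraries in blue, 5 Tumor libraries in red and the group means as black ticks. The melanosome list lies near 0.005% in TdLN and between 2.77% and 4.30% in Tumor libraries, and the pan-endothelial list falls from a mean of 1.19% to 0.517%.

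Transcripts shared by all endothelium were scarcer in the Tumor libraries. The 24 pan-endothelial genes took 1.11% to 1.27% of counts in TdLN and 0.416% to 0.630% in Tumor libraries (exact permutation p = 0.00794). None rose, 20 fell, 11 of them by over 2-fold, and 4 did not pass, with a median log2 fold change of -1.14. Pecam1, the gene of the sort protein CD31, stood at 1073, 1118, 1282, 1172 and 1249 CPM in TdLN and at 133, 318, 340, 333 and 254 CPM in Tumor libraries, where Tumor 1 was lowest. Cdh5, the cadherin of endothelial junctions, fell with -0.83 ± 0.15. Clec14a, an endothelial lectin, fell most, from 149 ± 27.8 to 2.20 ± 1.14 CPM (-6.07 ± 0.34), followed by Mmrn2, its matrix ligand (-3.21 ± 0.12), and the nitric oxide synthase gene Nos3 (-2.26 ± 0.22). Myct1, an endothelial membrane protein, had 153 ± 21.4 CPM in TdLN against 159 ± 30.8 CPM in Tumor (0.06 ± 0.15, edgeR adjusted p = 0.759). The 24 log2 fold changes ran from -6.07 to 0.06, so the genes did not move by a common factor. In sorted bulk samples, fewer endothelial cells and less RNA per cell cannot be told apart.

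Because the endothelial share of the RNA differed, each gene was also read relative to the endothelial genes. For this scale, called the endothelial scale, the library factors were the geometric mean of the 24 pan-endothelial genes, 1.22 to 1.4 in TdLN and 0.407 to 0.686 in Tumor libraries. The median log2 fold change over all genes was 0.04 on the scale of library totals and 1.5 on the endothelial scale. The change of reference thus raised log2 fold changes by a similar amount from gene to gene. A list median that lay less far below 0 than this shift turned its sign for that reason alone. Medians on the endothelial scale are therefore read against 1.5. On the endothelial scale glmTreat called 7334 genes (52.8%) higher and 728 (5.24%) lower by over 2-fold. Of the 4180 genes that fell on the library scale, 1460 were higher at an adjusted p under 0.05 on the endothelial scale. All 728 genes lower by over 2-fold on the endothelial scale were also lower by over 2-fold on the library scale, so a fall named on both scales is among these 728. All 1741 genes higher by over 2-fold on the library scale were so on the endothelial scale too, which is therefore no second test of a rise. The endothelial scale reads a gene per endothelial transcript and does not remove counts of other cells. The pan-endothelial genes themselves are no finding on it.

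**Figure D2:**
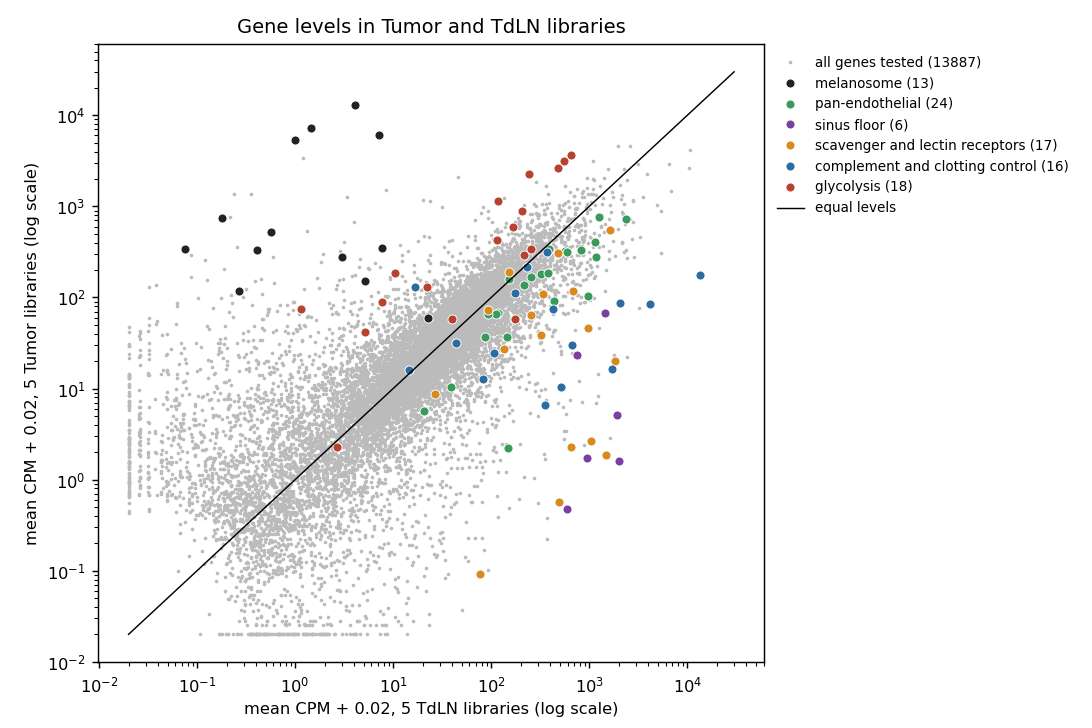
Mean level of each of the 13887 tested genes in the 5 TdLN libraries (x) and the 5 Tumor libraries (y), both as CPM + 0.02 on log axes, with 6 gene lists in color and a line of equal levels. Sinus floor genes lie far below the line, as Madcam1 with means of 959 and 1.69 CPM, while melanosome genes lie above it and pan-endothelial genes mostly just below it.

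Markers of other cells were read the same way. CD45 transcripts were near 0, with Ptprc at 0.577, 0.00, 2.36, 0.817 and 1.74 CPM in TdLN and 4.05, 0.289, 1.91, 1.06 and 1.07 CPM in Tumor libraries, and the 6 leukocyte markers together took 0.00645% of counts in TdLN and 0.00284% in Tumor libraries. All 10 macrophage markers rose, yet from and to low levels, as Adgre1, the F4/80 antigen, with 0.0406 ± 0.0479 and 4.61 ± 2.25 CPM, and their share went from 0.00209% to 0.0155% with the highest value in Tumor 1 (0.0248%). All 10 fibroblast markers rose, and their share was 0.143%, 0.730%, 0.468%, 0.293% and 1.09% in Tumor libraries 1 to 5 against a mean of 0.0246% in TdLN. Reticular stroma of the node moved the other way, with 5 of 6 markers lower and a share of 0.110% in TdLN and 0.00289% in Tumor libraries. Markers of blood endothelium and high endothelial venules took 0.425% in TdLN and 0.0606% in Tumor libraries, with 10 of 13 lower and 2 higher. The reticular list holds Madcam1 and Il7 and the list of blood endothelium and venules holds Kdr, Glycam1 and Sele. Lymphatic endothelium can express Madcam1, Il7 and Kdr too, so these shares need not come from other cells. The 8 pericyte markers took 0.0153% and 0.0117% (exact permutation p = 0.214). All 4 Schwann cell markers tested rose, and Sox10 and S100b among them are shared with the pigment lineage. The part of these cells in the results that follow was not tested, and their values stand beside the lists they touch.

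Lymphatic identity genes were present in all Tumor libraries, most at lower levels than in the node. Of 17 genes 11 fell, 7 of them by over 2-fold, 2 rose and 4 did not pass. The median log2 fold change was -1.31 on the library scale and 0.17 on the endothelial scale, below the 0.04 and 1.5 of all genes. Prox1, the transcription factor that sets lymphatic fate, was at 507, 441, 625, 517 and 601 CPM in TdLN and 73.5, 112, 132, 115 and 90.9 CPM in Tumor libraries (-2.36 ± 0.15; endothelial scale -0.96). The groups were far apart for Prox1, and Tumor 1 was lowest. Pdpn, the gene of the sort protein gp38, did not pass, with 123, 125, 134, 93.6 and 125 CPM in TdLN and 41.0, 110, 162, 143 and 126 CPM in Tumor libraries (-0.05 ± 0.26). Tumor 1 alone lay below the TdLN range for Pdpn. Flt4, the VEGF-C receptor, did not pass either, and Tumor 1 and Tumor 5 lay below its TdLN range, at 246, 913, 789, 776 and 533 CPM in Tumor and 1144, 906, 941, 660 and 819 CPM in TdLN libraries (-0.46 ± 0.26, edgeR adjusted p = 0.146). Lyve1, the hyaluronan receptor of lymphatic capillaries, fell from 1680 ± 296 to 858 ± 138 CPM, a log2 fold change of -0.97 on the library scale and 0.46 on the endothelial scale. Gata2, a factor needed for lymphatic valves, fell by over 2-fold on both scales (-2.79 ± 0.20 and -1.36). Of the genes that rose, Ccl21a, the chemokine that draws dendritic cells into lymphatics (ENSMUSG00000094686, chromosome 4 from 42772860 to 42773993 on the minus strand), stood at 171, 237, 126, 82.9 and 60.1 CPM in TdLN and 1501, 816, 842, 1406 and 1566 CPM in Tumor libraries (3.18 ± 0.37). Ccl21a has near-identical gene copies, so its counts are uncertain. Reln, reelin, rose from 35.4 ± 7.81 to 83.7 ± 23.3 CPM (1.24 ± 0.27).

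**Figure D3:**
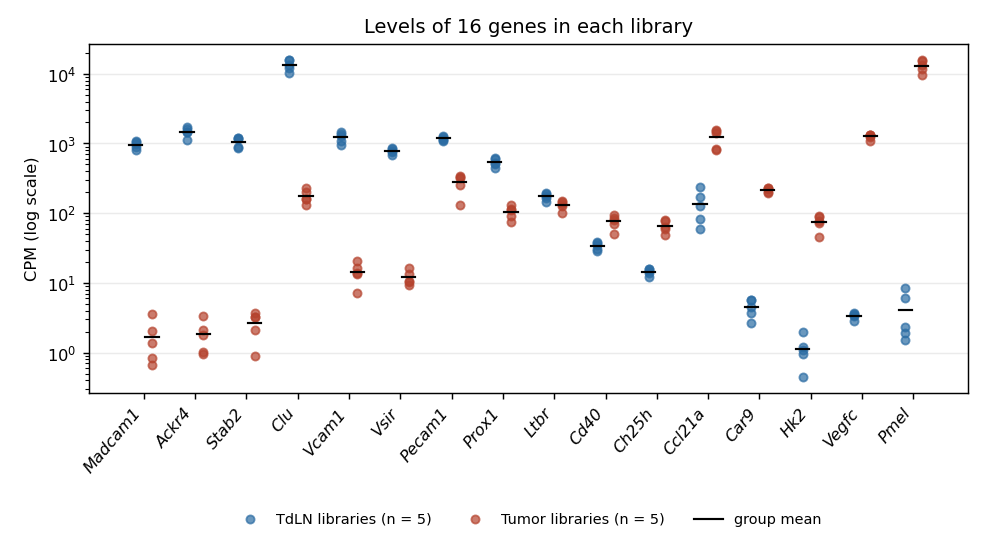
Level of 16 genes (CPM, log axis) in each of the 5 TdLN libraries (blue) and 5 Tumor libraries (red), with group means as black ticks. Madcam1, Ackr4, Stab2, Clu, Vcam1 and Vsir are lower in each Tumor library without overlap, Ltbr overlaps, and Cd40, Ch25h, Ccl21a, Car9, Hk2, Vegfc and Pmel are higher in each Tumor library.

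Genes of the sinus floor were far lower in the Tumor libraries. Each of 6 fell by over 2-fold on both scales, with medians of -8.86 (library) and -7.37 (endothelial), while 12.8% and 5.24% of all genes did so. Their share of counts went from 0.758% ± 0.0823 to 0.0107% ± 0.00427 (SD, n = 5). Madcam1, the mucosal addressin that binds leukocyte integrins (ENSMUSG00000020310, chromosome 10 from 79664559 to 79668537 on the plus strand), was at 807, 893, 1034, 1075 and 984 CPM in TdLN and 3.52, 0.656, 0.843, 1.38 and 2.06 CPM in Tumor libraries, which gave -9.18 ± 0.45 on the log2 scale (edgeR adjusted p = 2.38e-10). The chemokine gene Ccl20 was at 632, 554, 934, 402 and 416 CPM in TdLN and 1.23, 0.367, 0.646, 0.00 and 0.0290 CPM in Tumor libraries (-10.42 ± 0.76). For both genes every TdLN library stood above 400 CPM and every Tumor library under 4 CPM. Itga2b, an integrin of sinus endothelium, fell with -8.54 ± 0.29, Glycam1, an L-selectin ligand, with -10.36 ± 0.75, and Csf1, the macrophage growth factor, with -4.41 ± 0.34. Bmp2, a secreted growth factor, was lowest in TdLN 3 (681, 733, 227, 1087 and 1032 CPM in TdLN libraries), which still lay far above the 14.9, 15.8, 20.4, 26.1 and 39.8 CPM of the Tumor libraries. Madcam1 is also made by reticular stroma and Glycam1 by high endothelial venules, and the part of these cells in the values was not tested. The marker lists that cover them took 0.110% (reticular stroma) and 0.425% (blood and high endothelium) of counts in TdLN, as given above. These lists hold Madcam1 and Glycam1 themselves, so their shares do not measure such cells apart from the 2 genes.

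NF-kB dimers read elements that hold GGGAA, then any 3 bases, then CC. This motif was in the promoter window of 3 of the 5 sinus floor genes with one, of 5 of 13 leukocyte traffic genes and of 5.62% of all genes. The wider motif that includes it, with GGG, any 5 bases and CC, was in 4 of the 5 sinus floor genes and in 48.7% of all genes. The windows of Madcam1 (chr10:79664309-79664558, plus strand, matches 74 and 61 bases before the start) and Ccl20 (chr1:83116516-83116765, plus strand, 71 bases before it) are printed because both genes hold the motif and fell by over 2-fold on both scales. Capitals mark the motif.
Madcam1: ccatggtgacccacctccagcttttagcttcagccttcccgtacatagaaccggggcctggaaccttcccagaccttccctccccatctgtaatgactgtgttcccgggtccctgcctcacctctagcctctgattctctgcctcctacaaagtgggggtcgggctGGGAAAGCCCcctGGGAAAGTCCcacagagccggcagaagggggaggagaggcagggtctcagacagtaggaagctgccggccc
Ccl20: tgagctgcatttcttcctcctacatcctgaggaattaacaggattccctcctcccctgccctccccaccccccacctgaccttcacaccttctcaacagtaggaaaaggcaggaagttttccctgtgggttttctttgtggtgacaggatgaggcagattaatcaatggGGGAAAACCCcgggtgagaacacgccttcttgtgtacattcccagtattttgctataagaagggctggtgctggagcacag

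The sinus ceiling and medullary sinus lists moved with less uniformity. Of 3 ceiling genes all fell, 2 of them by over 2-fold on both scales. Ackr4, the receptor that removes the chemokines of Ccr7, was at 1107, 1470, 1465, 1739 and 1614 CPM in TdLN and 3.36, 1.78, 2.13, 1.01 and 0.956 CPM in Tumor libraries (-9.66 ± 0.38). Cd36, a fatty acid receptor, fell with -6.49 ± 0.25, and Btnl9, a butyrophilin-like protein, from 104 ± 38.2 to 53.4 ± 11.8 CPM, with a change of sign to 0.50 on the endothelial scale. Of 7 genes of paracortical and medullary sinuses 4 fell and 2 rose, and the median was -0.94 on the library scale and 0.56 on the endothelial scale. Both that rose, the potassium channel gene Kcnj8 (0.97 ± 0.28) and Ptx3, a soluble pattern recognition molecule (2.80 ± 0.92), did not pass the test against 2-fold. Ptx3 varied widely, with 45.4, 32.9, 4.98, 36.7 and 47.8 CPM in TdLN and 371, 339, 343, 85.1 and 30.9 CPM in Tumor libraries, so the groups overlapped.

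Scavenger and lectin receptors, by which sinus endothelium clears material from lymph, fell as a block with few exceptions. Of 17 genes 15 fell, 14 by over 2-fold, none rose (1 without TdLN 1 or Tumor 1) and 2 did not pass, with medians of -2.56 on the library scale and -1.15 on the endothelial scale. On the endothelial scale 8 stayed lower by over 2-fold and 1 was higher. Clec4g, a lectin of sinusoidal endothelium, was at 50.7, 65.4, 70.3, 117 and 75.5 CPM in TdLN and 0.246, 0.0525, 0.0281, 0.00 and 0.0290 CPM in Tumor libraries. Marco, a collagenous scavenger receptor best known from macrophages, was at 273, 310, 615, 848 and 434 CPM in TdLN and 1.76, 0.525, 0.281, 0.0575 and 0.145 CPM in Tumor libraries. Stab2, the hyaluronan clearance receptor, was at 1193, 851, 1189, 883 and 1151 CPM in TdLN and 2.13, 3.73, 3.20, 3.25 and 0.898 CPM in Tumor libraries. None of these 3 genes had overlapping libraries, and their log2 fold changes were -10.20 ± 0.52, -9.92 ± 0.93 and -8.63 ± 0.34. Gpr182, an atypical chemokine receptor, was at 1097, 1052, 911, 927 and 884 CPM in TdLN and 42.5, 48.9, 46.2, 49.6 and 41.8 CPM in Tumor libraries (-4.41 ± 0.11). Stab1 and the chemokine decoy receptor Ackr2 fell on the library scale (-1.56 ± 0.23 and -0.63 ± 0.13) but had endothelial-scale values of -0.18 and 0.80, of which the second has the other sign. Mrc1, the mannose receptor, and Scarb1, the HDL receptor, did not pass (-0.34 ± 0.31 and 0.34 ± 0.15), though Scarb1 was called higher without TdLN 1 or Tumor 1 (0.41 in each case).

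Genes of lymphotoxin and RANK signalling were mostly lower in Tumor. Of 16 genes 14 fell, 9 by over 2-fold, and 1 rose, and of the 5 receptor genes among them 4 fell. The median was -2.20 on the library scale and -0.73 on the endothelial scale, on which 7 stayed lower by over 2-fold. Birc3, a ubiquitin ligase and NF-kB target, was at 171, 143, 213, 226 and 200 CPM in TdLN and 8.84, 12.4, 12.7, 8.93 and 9.56 CPM in Tumor libraries (-4.18 ± 0.19). Map3k14, the kinase NIK that starts the non-canonical branch, was at 68.2, 60.9, 66.6, 42.4 and 55.5 CPM in TdLN and 0.860, 4.30, 4.86, 3.65 and 3.85 CPM in Tumor libraries (-4.06 ± 0.33). Nfkb2 and Relb, the transcription factor pair of that branch, fell with -3.02 ± 0.20 and -2.90 ± 0.20, and each was lower by over 2-fold on the endothelial scale too. Among receptors, Tnfrsf11a, which encodes RANK, fell with -3.64 ± 0.34. Ltbr, the lymphotoxin beta receptor, fell slightly, from 190, 193, 178, 164 and 143 CPM in TdLN to 101, 151, 135, 143 and 128 CPM in Tumor libraries (-0.40 ± 0.11), and the sign turned on the endothelial scale (1.03). Cd40 rose, from 37.6, 38.5, 34.7, 28.4 and 30.9 CPM in TdLN to 84.8, 71.0, 95.1, 80.7 and 49.8 CPM in Tumor libraries (1.16 ± 0.19). Rela, of the canonical branch, did not pass (-0.65 ± 0.30) but was called lower without any 1 of TdLN 1 and 3 and Tumor 2 (-0.76 to -0.87). The inhibitor genes Nfkbia and Tnfaip3, both NF-kB targets, fell with -2.29 ± 0.11 and -2.84 ± 0.34.

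Adhesion molecules and chemokines that guide leukocytes moved both ways. Of 21 leukocyte traffic genes 13 fell, 12 by over 2-fold, 4 rose and 4 did not pass, with medians of -1.44 (library) and 0.01 (endothelial). Vcam1, the ligand of the integrin VLA-4 (ENSMUSG00000027962, chromosome 3 from 116109949 to 116129688 on the minus strand), was at 1103, 941, 1464, 1354 and 1283 CPM in TdLN and 13.7, 13.5, 16.5, 7.12 and 20.3 CPM in Tumor libraries (-6.43 ± 0.28, endothelial scale -4.96). Jam3, a junction protein, and Cxcl16, a transmembrane chemokine, fell with -4.75 ± 0.20 and -4.51 ± 0.19. Icam1 fell with -3.04 ± 0.17, and Sele, E-selectin, with -3.12 ± 0.44. Spns2, the exporter of sphingosine-1-phosphate, fell with -2.62 ± 0.45 although TdLN 4 stood apart at 408 CPM among TdLN values of otherwise 103 to 131 CPM. The genes that rose, besides Ccl21a, encode inflammatory chemokines. Ccl5 was at 4.04, 1.21, 5.64, 3.10 and 4.71 CPM in TdLN and 33.2, 10.8, 18.5, 16.9 and 37.1 CPM in Tumor libraries, and Ccl2 and Ccl7 had log2 fold changes of 1.23 ± 0.19 and 1.01 ± 0.21. Cxcl10 fell (-1.69 ± 0.34) and Cxcl9 did not pass (-0.19 ± 0.49), both being chemokines induced by interferon.

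Survival and growth factors that node endothelium supplies to leukocytes were mostly lower. Of 11 genes 8 fell, 6 by over 2-fold and 3 of these also on the endothelial scale, and 1 rose, with medians of -1.87 and -0.45 on the 2 scales. Il33, an alarmin stored in the nucleus, was at 474, 450, 588, 581 and 491 CPM in TdLN and 24.3, 20, 48.2, 14 and 21 CPM in Tumor libraries (-4.34 ± 0.33). Il7, which keeps lymphocytes alive, fell from 59.1 ± 10.9 to 12.9 ± 2.74 CPM, and Csf3, the neutrophil growth factor, from 4.42 ± 2.70 to 0.253 ± 0.327 CPM. Il6 rose from 2.98 ± 0.686 to 8.35 ± 3.94 CPM (1.49 ± 0.40), a call that limma voom did not make (1.09, adjusted p = 0.114).

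Among checkpoint ligands and other regulators of T cells, 6 of 14 fell by over 2-fold and 2 rose (4 without TdLN 5). Of the 6, 2 were also lower by over 2-fold on the endothelial scale, and the medians were -1.22 (library) and 0.21 (endothelial). Vsir, which encodes VISTA (ENSMUSG00000020101, chromosome 10 from 60346851 to 60372684 on the plus strand), was at 676, 783, 859, 828 and 756 CPM in TdLN and 10.6, 16.2, 10.4, 9.31 and 13.3 CPM in Tumor libraries (-6.02 ± 0.17, endothelial scale -4.57). Tnfsf10, the death ligand TRAIL, was the other (-4.04 ± 0.24, endothelial scale -2.55). Cd274, which encodes PD-L1, was at 165, 106, 216, 167 and 149 CPM in TdLN and 17.6, 16.7, 19.5, 28.1 and 36.2 CPM in Tumor libraries, a log2 fold change of -2.76 ± 0.28 on the library scale and -1.30 on the endothelial scale. The groups did not overlap for Cd274, as for 46.6% of all genes. Cd276, which encodes B7-H3, rose from 17.5, 13.2, 3.63, 5.66 and 6.48 CPM in TdLN to 61.0, 201, 211, 194 and 174 CPM in Tumor libraries (4.18 ± 0.52), with Tumor 1 lowest, and Lgals1, galectin 1, rose with 1.99 ± 0.20. Cd276 and Lgals1 are made by many cell types, and the part of non-endothelial cells was not tested.

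Regulators of complement and clotting gave some of the deepest falls among abundant transcripts. Of 16 genes 11 fell, 10 by over 2-fold and 7 of them also on the endothelial scale, and 1 rose, with medians of -2.61 and -1.14 on the library and endothelial scales. Their share went from 2.41% ± 0.402 to 0.143% ± 0.0378 of counts (SD, n = 5). Clu, clusterin, which blocks the final complement complex (ENSMUSG00000022037, chromosome 14 from 65968483 to 65981547 on the plus strand), was at 10212, 12236, 15986, 15729 and 13307 CPM in TdLN and 227, 162, 133, 162 and 198 CPM in Tumor libraries (-6.26 ± 0.25). Cd55, which breaks up complement convertases, was at 1448, 1492, 1742, 2048 and 1782 CPM in TdLN and 16.7, 12.1, 16.8, 18.9 and 16.6 CPM in Tumor libraries (-6.71 ± 0.22). Cfb and C3, components of the alternative pathway, fell with -5.61 ± 0.29 and -4.54 ± 0.52. On the clotting side, Thbd, thrombomodulin, fell with -4.45 ± 0.24 and F8, coagulation factor VIII, with -5.64 ± 0.25. C4b, a component of the classical pathway, rose, from 10.6, 7.41, 27.2, 23.5 and 15.1 CPM in TdLN to 37.9, 107, 85.9, 93.8 and 331 CPM in Tumor libraries (2.97 ± 0.58). Its highest value lay in Tumor 5, the library with the highest fibroblast share. Vwf, Plat, Serping1 and C1s1 did not pass (edgeR adjusted p of 0.672, 0.678, 0.419 and 0.357). Without Tumor 5, Serping1 (-0.53) and C1s1 (-0.96) were called lower, against -0.23 and -0.47 with all libraries.

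On the library scale, antigen presentation genes of class I and class II moved in opposite directions. Of 13 class I genes 11 fell, 6 by over 2-fold, and none rose, but the median turned from -1.03 on the library scale to 0.46 on the endothelial scale, on which none stayed lower by over 2-fold. H2-K1, a classical class I chain, was at 6262, 6785, 7291, 6822 and 6781 CPM in TdLN and 1749, 969, 1081, 1551 and 2097 CPM in Tumor libraries (-2.19 ± 0.18; endothelial scale -0.67). B2m, its light chain, fell with -1.36 ± 0.20 (endothelial scale 0.15). Of 7 class II genes 6 rose, all by over 2-fold on the library scale and so also on the endothelial scale, and none fell (1 without Tumor 5). For 3 of the 6 the libraries did not overlap, as for 46.6% of all genes. Their summed share of counts was 0.0672%, 0.0780%, 0.120%, 0.105% and 0.115% in TdLN and 0.130%, 0.0551%, 0.0717%, 0.147% and 0.330% in Tumor libraries, which did not pass (exact permutation p = 0.429). For this share Tumor 2 lay below the TdLN range, Tumor 3 inside it and the other Tumor libraries above it. H2-Aa, a class II alpha chain, was at 6.98, 7.53, 32.4, 14.9 and 19.9 CPM in TdLN and 217, 55.3, 87.5, 142 and 458 CPM in Tumor libraries (3.55 ± 0.61). Ciita, the master activator of class II genes, rose from 3.30 ± 1.91 to 15.7 ± 15.9 CPM (2.25 ± 0.57), and without Tumor 5 its log2 fold change was 1.38. Cd74, the invariant chain, did not pass, with 612, 726, 976, 987 and 1021 CPM in TdLN and 555, 287, 329, 825 and 1718 CPM in Tumor libraries (-0.22 ± 0.40), and without Tumor 5 it was called lower (-0.8). H2-K1, B2m, H2-Aa and Cd74 were each highest in Tumor 5 and lowest in Tumor 2 among the Tumor libraries. All 10 macrophage markers rose, with shares of 0.0248%, 0.0126%, 0.0140%, 0.0114% and 0.0149% of counts in Tumor libraries 1 to 5. Of 4 dendritic cell markers tested 1 rose, 2 fell and 1 did not pass, and the list took 0.00870% in TdLN and 0.00168% in Tumor libraries. The part of such cells in the class II values was not tested. Class I genes of the H2 family share sequence, so reads may be split between them.

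Genes induced by type I interferon fell on the library scale, 14 of 16, 7 by over 2-fold, with a median of -1.25 that turned to 0.24 on the endothelial scale. Ifi44 fell from 342 ± 41.0 to 82.9 ± 14.1 CPM (-2.04 ± 0.18; endothelial scale -0.57). Rsad2, which encodes the antiviral enzyme viperin, rose, from 71.1, 51.7, 143, 79.8 and 93.5 CPM in TdLN to 243, 169, 210, 209 and 268 CPM in Tumor libraries (1.32 ± 0.34).

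**Figure D4:**
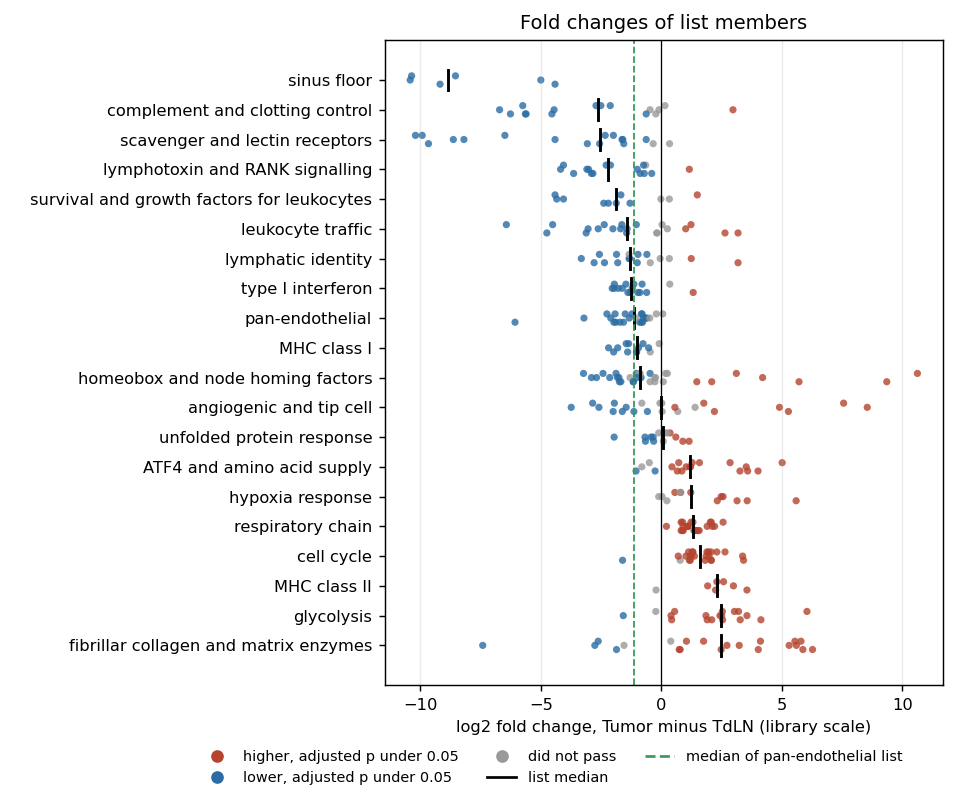
Log2 fold change of each member of 20 gene lists (library scale, Tumor minus TdLN), in red where higher and blue where lower at an adjusted p under 0.05 and gray otherwise, with list medians as black ticks and the pan-endothelial median of -1.14 as a dashed line. Sinus floor genes lie furthest to the left, while glycolysis, respiratory chain and cell cycle genes lie to the right of 0 with few exceptions.

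Positional factors of the homeobox class differed gene by gene. Of 33 tested, 16 fell, 8 by over 2-fold, and 7 rose, 5 by over 2-fold, with a median of -0.88 that turned to 0.57 on the endothelial scale. Of all genes 30.1% fell, 12.8% by over 2-fold, and 31.9% rose, 12.5% by over 2-fold. By cluster, 2 of 9 Hoxa genes fell and 4 rose, 6 of 8 Hoxb genes fell and none rose, 1 of 5 Hoxc genes fell and 2 rose, and 3 of 6 Hoxd genes fell and 1 rose, and no difference between clusters was tested. Hoxd10 (ENSMUSG00000050368, chromosome 2 from 74691924 to 74695105 on the plus strand) was at 66.8, 93.7, 65.9, 91.3 and 85.8 CPM in TdLN and 7.45, 9.52, 8.23, 12.1 and 5.74 CPM in Tumor libraries (-3.23 ± 0.20). Another gene of that cluster, Hoxd13 (ENSMUSG00000001819, chromosome 2 from 74668310 to 74671599 on the plus strand), did the reverse, at 0.00, 0.00, 0.0288, 0.00 and 0.00 CPM in TdLN and 7.62, 6.69, 5.90, 8.53 and 2.43 CPM in Tumor libraries. Hoxa11 (ENSMUSG00000038210, chromosome 6 from 52242106 to 52245810 on the minus strand) had no count in any TdLN library and stood at 7.17, 3.28, 7.13, 6.35 and 5.30 CPM in Tumor libraries, which is at least 337-fold higher when 3 counts over the TdLN group are taken as the limit. Hoxa11 overlaps an antisense gene, and without a stated strand their reads cannot be told apart. Hoxa10 beside it was at 0.923, 0.945, 0.777, 0.732 and 2.21 CPM in TdLN and 28.8, 17, 14.1, 21.3 and 21.5 CPM in Tumor libraries (4.2 ± 0.44). For these 4 genes no Tumor library overlapped with a TdLN library, as for 46.6% of all genes. Both directions held on the endothelial scale, as did every rise by over 2-fold. Meis2, a partner of Hox proteins, fell with -2.42 ± 0.11. Nkx2-3, a factor of endothelium in gut and spleen, had 0 counts in all libraries.

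Angiogenic genes moved both ways. Of 22, 7 rose, 5 by over 2-fold, a share close to the 31.9% of all genes. Another 9 fell, 6 by over 2-fold, where 30.1% of all genes fell. The median was -0.02 on the library scale and 1.39 on the endothelial scale. On the endothelial scale 11 were higher and 1 lower by over 2-fold, close to the 52.8% and 5.24% of all genes. Vegfc, the lymphatic growth factor (ENSMUSG00000031520, chromosome 8 from 54077606 to 54187096 on the plus strand), was at 3.32, 3.52, 3.74, 2.87 and 3.48 CPM in TdLN and 1316, 1250, 1088, 1310 and 1344 CPM in Tumor libraries (8.54 ± 0.28). These data do not tell which cells the Vegfc transcripts came from. Vegfd, the related ligand, was at 0.0289, 0.00, 0.00, 0.0563 and 0.348 CPM in TdLN and 10.1, 18.6, 17.8, 3.16 and 32.8 CPM in Tumor libraries (7.56 ± 0.91). Pgf, placental growth factor, rose with 5.27 ± 0.36, Apln, a tip cell peptide, with 4.90 ± 0.63, and Angpt2, the Tie2 antagonist stored in endothelium, with 1.76 ± 0.19. Angpt1, the Tie2 agonist, fell from 11.4 ± 4.63 to 0.840 ± 0.602 CPM, and Tek, which encodes Tie2, with -2.0 ± 0.17. Kdr, a VEGF receptor, was at 1446, 1388, 1713, 1626 and 1738 CPM in TdLN and 154, 352, 289, 294 and 221 CPM in Tumor libraries (-2.59 ± 0.18, endothelial scale -1.19). Plvap, the diaphragm protein of fenestrae, fell (-2.85 ± 0.70), but TdLN 3 at 314 CPM lay inside the Tumor range of 117 to 802 CPM. Vegfa did not pass, with means of 52.2 ± 24.9 and 53.1 ± 18.1 CPM.

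Notch genes showed 6 of 13 lower and 2 higher, where 30.1% and 31.9% of all genes did so. The medians were -0.84 (library) and 0.74 (endothelial). The ligand genes Dll1 and Jag2 fell with -2.43 ± 0.30 and -1.95 ± 0.24, while the receptor gene Notch4 rose with 3.71 ± 0.70. Notch4 varied within Tumor, at 13.5, 62.7, 57.1, 9.34 and 6.00 CPM, with Tumor 2 and Tumor 3 highest, and its TdLN values were 1.01, 2.10, 0.777, 4.37 and 3.10 CPM. Heyl, a Notch target, rose from 0.874 ± 0.815 to 8.08 ± 5.73 CPM.

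Guidance genes of the semaphorin, ephrin and plexin families counted 12 lower and 6 higher of 25, where 30.1% and 31.9% of all genes did so. Their median of -0.53 turned to 0.82 on the endothelial scale. Sema3d, a secreted semaphorin, was at 877, 699, 993, 836 and 1029 CPM in TdLN and 68.8, 93.3, 92.9, 115 and 78.8 CPM in Tumor libraries (-3.31 ± 0.15), and Sema3a fell with -2.85 ± 0.17. Efnb2, the ephrin of arteries and of lymphatic valves, was at 45.6, 54.8, 58.1, 265 and 119 CPM in TdLN, with TdLN 4 highest, and 4.34, 15.1, 9.33, 3.85 and 2.90 CPM in Tumor libraries (-3.93 ± 0.56). The ephrin receptor gene Ephb1 and the plexin gene Plxna1 rose with 3.13 ± 0.53 and 2.76 ± 0.35.

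Genes of collecting vessels and valves fell in 9 of 13 cases, 6 by over 2-fold and 3 of these also on the endothelial scale, and none rose, with medians of -2.07 and -0.69. Cldn11, a tight junction protein, was at 40.9, 59.0, 50.0, 58.3 and 63.4 CPM in TdLN and 0.164, 0.210, 0.00, 0.0287 and 0.203 CPM in Tumor libraries (-8.78 ± 0.41). Gja4, a connexin needed for valves, was at 239, 340, 481, 352 and 398 CPM in TdLN and 5.08, 5.19, 2.72, 9.85 and 14.2 CPM in Tumor libraries (-5.61 ± 0.40). Foxc2, the valve transcription factor, fell (-3.32 ± 1.10) but scattered in both groups, with 12.6, 32.1, 4.29, 105 and 103 CPM in TdLN and 3.81, 8.68, 8.93, 3.76 and 0.492 CPM in Tumor libraries, so that 1 TdLN library lay inside the Tumor range, and limma voom did not call it (adjusted p = 0.0729). Klf2, Piezo1 and Gja1, which respond to or sense flow, did not pass, though Klf2 was called lower without TdLN 3 (-2.37). Of 7 caveola genes 4 fell, as Cav1 with -1.37 ± 0.18 (endothelial scale 0.10), and Pacsin2 rose slightly (0.33 ± 0.11, a call lost without Tumor 2 at 0.25). The median of the caveola list was -0.74 on the library scale and 0.72 on the endothelial scale.

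TGF-beta and BMP genes were lower in 11 of 20 cases, 8 by over 2-fold and 3 of these also on the endothelial scale, and higher in 1 (2 without any 1 of TdLN 1 and 2 and Tumor 2 and 5), with medians of -0.92 (library) and 0.51 (endothelial). Bmp4, a secreted ligand, was at 24.6, 32.2, 54.5, 43.1 and 53.4 CPM in TdLN and 0.287, 0.892, 0.702, 0.230 and 0.464 CPM in Tumor libraries (-6.30 ± 0.37). The receptor genes Tgfbr1 and Tgfbr2 fell with -2.28 ± 0.24 and -1.26 ± 0.16, the second with 0.15 on the endothelial scale. Ccn1, a matricellular target, fell with -2.03 ± 0.12 while the related Ccn2 rose with 0.48 ± 0.16, a call lost without Tumor 3 (0.37). Id1, Id2 and Id3, direct BMP targets, did not pass, though Id1 was called higher without any 1 of TdLN 1 and 2 and Tumor 5 (0.85 to 0.89) and Id2 without Tumor 2 (0.44).

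Basement membrane and interstitial matrix parted. Of 16 basement membrane genes 10 fell and 1 rose (2 without Tumor 1), with medians of -0.94 (library) and 0.47 (endothelial), while 15 of 21 genes of fibrillar collagen and matrix enzymes rose, 11 by over 2-fold, and 4 fell, with medians of 2.48 and 3.97. Lamb3, a laminin chain, was at 42.5, 60.6, 95.8, 97.0 and 110 CPM in TdLN and 0.205, 0.0525, 0.0843, 0.345 and 0.348 CPM in Tumor libraries (-8.61 ± 0.46). Its partner chain Lama3, at 1.03 ± 0.497 CPM in TdLN, had no count in any Tumor library, at least 53.8-fold lower by the same limit of 3 counts over a group. Lama5, the laminin chain of mature endothelium, fell with -3.30 ± 0.21. Mmp9, a gelatinase, was at 891, 996, 1420, 1280 and 1249 CPM in TdLN and 5.49, 4.35, 6.35, 8.93 and 9.10 CPM in Tumor libraries (-7.41 ± 0.33). Mmp2, the other gelatinase, did the reverse, at 1.21, 2.13, 3.86, 3.13 and 3.57 CPM in TdLN and 112, 155, 148, 106 and 249 CPM in Tumor libraries (5.79 ± 0.50). Col1a1, the chain of collagen I, was at 6.32, 12.4, 30.1, 17.9 and 33.1 CPM in TdLN and 101, 1485, 990, 780 and 2478 CPM in Tumor libraries (5.87 ± 0.77). Col1a1 and Col3a1, which rose with 5.54 ± 0.71, are themselves 2 of the 10 fibroblast markers, whose share was also lowest in Tumor 1 and highest in Tumor 5. Mmp3, stromelysin, rose with 6.27 ± 0.95. The falls among these genes included Timp3, an inhibitor of matrix enzymes, and the matrix proteins Postn and Tnc (-2.62 ± 0.11, -2.76 ± 0.30 and -1.86 ± 0.27).

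Glycolysis genes rose in near unison. Of 18 genes 16 rose, 13 by over 2-fold, and 1 fell, with medians of 2.46 and 3.92 on the library and endothelial scales. Their share was 0.323% ± 0.0476 in TdLN and 1.70% ± 0.0424 in Tumor (SD, 5 libraries each). Hk2, hexokinase 2, which traps glucose in the cell, was at 0.952, 0.443, 1.96, 1.10 and 1.2 CPM in TdLN and 45.8, 71.5, 76.3, 87.9 and 90.8 CPM in Tumor libraries (6.04 ± 0.39). Slc16a3, a lactate exporter, was at 9.55, 6.50, 17.8, 11 and 7.34 CPM in TdLN and 59.3, 199, 264, 229 and 165 CPM in Tumor libraries (4.13 ± 0.37). Tpi1 and Eno1, enzymes of the lower pathway, rose with 3.20 ± 0.13 and 3.27 ± 0.11, and Ldha, which makes lactate, with 2.53 ± 0.15. Tumor 1 was lowest for Hk2 and Slc16a3 but highest for Tpi1 and Eno1. Pfkfb3, the activator of glycolysis known from sprouting endothelium, was the gene that fell (-1.58 ± 0.16; endothelial scale -0.17). Gapdh and Pgk1 have processed pseudogenes that can share reads.

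The hypoxia list rose with it, 9 of 13 higher and none lower, with medians of 1.22 (library) and 2.77 (endothelial). Car9, the carbonic anhydrase used as a hypoxia marker (ENSMUSG00000028463, chromosome 4 from 43506966 to 43513729 on the plus strand), was at 5.77, 5.76, 2.68, 3.72 and 4.52 CPM in TdLN and 203, 230, 230, 223 and 196 CPM in Tumor libraries (5.59 ± 0.21). Bnip3, which marks mitochondria for removal, rose with 3.56 ± 0.13, and Egln3, an oxygen sensor, with 3.14 ± 0.28. Vegfa, Ndrg1, Kdm3a and Ddit4, all known hypoxia targets, did not pass on the library scale, though Ddit4 was called higher without Tumor 1 (1.02). Hypoxia-inducible factors read elements that hold ACGTG, which also lies within the palindrome CACGTG. It was in the promoter window of 10 of 18 glycolysis genes, of 8 of 12 hypoxia genes with a window and of 18.5% of all genes. The windows of Car9 (chr4:43506776-43507025, plus strand, match 13 bases before the start) and Hk2 (chr6:82774455-82774704, minus strand, matches 221 and 47 bases before it) are printed because these genes rose most within their lists. The RefSeq start of Car9 and the match before it lie inside the gene position given above, which is that of GENCODE. Capitals mark ACGTG or its reverse complement CACGT.
Car9: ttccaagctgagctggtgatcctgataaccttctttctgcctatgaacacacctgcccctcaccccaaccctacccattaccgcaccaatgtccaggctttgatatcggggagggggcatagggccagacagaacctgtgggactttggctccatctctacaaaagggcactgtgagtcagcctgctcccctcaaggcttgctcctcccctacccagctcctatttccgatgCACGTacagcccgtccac
Hk2: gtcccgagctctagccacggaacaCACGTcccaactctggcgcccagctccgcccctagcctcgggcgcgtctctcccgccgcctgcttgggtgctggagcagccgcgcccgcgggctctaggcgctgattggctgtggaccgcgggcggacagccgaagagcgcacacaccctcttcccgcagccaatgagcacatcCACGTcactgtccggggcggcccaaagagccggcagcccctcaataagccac

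Respiratory chain genes rose beside those of glycolysis. All 23 respiratory chain genes rose, 13 by over 2-fold, with medians of 1.31 and 2.80 on the library and endothelial scales. Their share went from 0.737% to 1.87% of counts. Cycs, cytochrome c, was at 6.49, 4.49, 4.2, 5.69 and 3.48 CPM in TdLN and 38.2, 21.5, 21.7, 32.0 and 30.3 CPM in Tumor libraries (2.56 ± 0.21). Sdha, of complex II, moved least, from 485, 425, 446, 452 and 472 CPM in TdLN to 514, 571, 474, 503 and 578 CPM in Tumor libraries (0.21 ± 0.08), and its call was lost without any 1 of TdLN 2 to 5 or of Tumor 2, 4 and 5 (0.15 to 0.21). The subunit genes Atp5b and Cyc1 rose with 1.23 ± 0.10 and 2.11 ± 0.14. The pigment transcripts reached their high level in the same 5 libraries, and the part of tumor cells in the metabolic lists was not tested.

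Amino acid supply under the factor ATF4 was higher in 15 of 19 genes, 7 by over 2-fold, and lower in 2 (1 without any 1 of TdLN 1, 3 and 4 and Tumor 3 and 5). Slc7a5, a carrier of large amino acids, was at 18.1, 10.3, 2.13, 8.65 and 19.5 CPM in TdLN and 161, 542, 496, 467 and 217 CPM in Tumor libraries (5.01 ± 0.59). Phgdh, the first enzyme of serine synthesis, and Asns, asparagine synthetase, rose with 4.01 ± 0.37 and 3.52 ± 0.24. The unfolded protein response showed 4 of 15 higher and 6 lower, where 31.9% and 30.1% of all genes did so, with medians of 0.08 (library) and 1.56 (endothelial). Of these, Dnajb9, a chaperone cofactor, fell furthest (-1.96 ± 0.24), while Sdf2l1, which works with the chaperone BiP, rose with 0.89 ± 0.15. Ribosome assembly genes rose in 14 of 16 cases but by over 2-fold in 3, with medians of 0.93 and 2.4 on the library and endothelial scales. Ncl, nucleolin, rose with 1.02 ± 0.11, while Myc, the activator of this program, was the gene that fell, from 258, 206, 223, 266 and 220 CPM in TdLN to 88.0, 109, 103, 116 and 110 CPM in Tumor libraries (-1.16 ± 0.11; endothelial scale 0.29).

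Cell cycle genes rose in 22 of 24 cases, 11 by over 2-fold, with medians of 1.6 and 3.05 on the library and endothelial scales. Rrm2, which supplies nucleotides for DNA synthesis, was at 81.0, 49.2, 36.3, 12.3 and 21.8 CPM in TdLN and 498, 406, 397, 394 and 437 CPM in Tumor libraries (3.41 ± 0.41). Ccne1, cyclin E1, rose with 3.37 ± 0.46, and Mki67, the proliferation antigen, did not pass (0.78 ± 0.38) but was called higher without TdLN 1 (1.05). Ccnd1, cyclin D1, fell, from 335, 320, 411, 288 and 561 CPM in TdLN to 173, 95.4, 110, 130 and 120 CPM in Tumor libraries (-1.61 ± 0.21). Which cells carried the cycling transcripts was not tested.

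Genes of oxysterol metabolism, the subject named in the series title, counted 5 of 13 higher and 5 lower, where 31.9% and 30.1% of all genes did so. Their median of -0.16 turned to 1.33 on the endothelial scale. Ch25h, the enzyme that makes 25-hydroxycholesterol, was at 12, 13.8, 15.8, 14.6 and 15.9 CPM in TdLN and 76.0, 48.3, 80.4, 60.1 and 62.7 CPM in Tumor libraries (2.18 ± 0.16, endothelial scale 3.64). Cyp27a1, a sterol hydroxylase, fell from 24.3, 35.7, 42, 43.5 and 33.1 CPM in TdLN to 1.47, 1.65, 1.97, 0.776 and 0.00 CPM in Tumor libraries (-4.93 ± 0.61). Sult2b1, which sulfates oxysterols, fell with -4.34 ± 0.33, and both falls held on the endothelial scale by over 2-fold. Cyp7b1 and Hsd3b7, which carry oxysterols toward bile acids, fell with -1.34 ± 0.39 and -1.40 ± 0.13, and the sign turned on the endothelial scale (0.13 and 0.04). Gpr183, the receptor for a dihydroxylated oxysterol, rose from 0.952, 0.532, 0.489, 0.789 and 0.127 CPM in TdLN to 15.6, 9.50, 18.4, 7.87 and 6.00 CPM in Tumor libraries (4.30 ± 0.54). Insig1, the sterol sensor of the endoplasmic reticulum, rose with 3.09 ± 0.26, and Hsd11b1, a steroid reductase, with 3.65 ± 0.22.

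Insulin-like growth factor genes fell in 5 of 8 cases (3 without TdLN 4) and rose in 2, with medians of -1.44 and -0.03 on the library and endothelial scales. Igf1 was at 147, 190, 215, 236 and 226 CPM in TdLN and 17.9, 27.0, 24.5, 11.6 and 34.8 CPM in Tumor libraries (-3.13 ± 0.25), lower by over 2-fold on both scales. Igfbp6, a binding protein, rose (6.31 ± 0.70), with its highest value, 164 CPM, in Tumor 5, the library with the highest fibroblast share. Igfbp3, another binding protein, rose but overlapped between groups, at 1.59, 3.54, 2.10, 40.7 and 4.93 CPM in TdLN and 76.2, 172, 21.2, 14.3 and 16.2 CPM in Tumor libraries. Its call, a log2 fold change of 2.50 ± 0.90, was lost without any 1 of TdLN 2, 3 and 5 and Tumor 2 (1.56 to 2.31) and was 4.30 without TdLN 4.

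Among genes called at over 2-fold, with a mean of at least 50 CPM in the higher group, without overlap and outside the melanosome list, the 12 with the highest fold changes were Pax3, S100b, Sox10, Car14, Ccdc13, Col2a1, Fkbp6, Hhatl, Ptgds, Rab17, Spp1 and Tspan10. Of these Pax3, S100b and Sox10 belong to the pigment lineage list. Car14, a carbonic anhydrase, was at 0.115, 0.00, 0.00, 0.0282 and 0.190 CPM in TdLN and 384, 260, 206, 267 and 359 CPM in Tumor libraries (12.07 ± 0.55). Spp1, osteopontin, was at 0.0866, 0.0295, 0.0288, 0.451 and 1.08 CPM in TdLN and 1869, 1057, 902, 1524 and 1439 CPM in Tumor libraries (12 ± 0.82), and Ptgds, a prostaglandin synthase, rose with 11.48 ± 0.60. Hhatl, Fkbp6, Rab17, Col2a1 and Ccdc13 had 3 or fewer counts in all TdLN libraries together, so their levels are given without a fold. They reached 130, 114, 110, 147 and 145 CPM (Hhatl), 186, 118, 91.8, 138 and 143 CPM (Fkbp6) and 73.5, 44.9, 39.5, 62.5 and 73.7 CPM (Rab17) in the Tumor libraries. Hhatl and Ccdc13 are neighbors on chromosome 9.

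By the same rule the 12 lowest fold changes belonged to Madcam1, Ackr4, Ccl20, Clec4g, Glycam1, Marco, Astn1, Coch, Csf2rb2, Dsg2, Serpina1b and Spint2, and on the endothelial scale Slc16a9 took the place of Madcam1. Coch, cochlin, an extracellular matrix protein, was at 1381, 1435, 2022, 1590 and 1755 CPM in TdLN and 2.54, 3.33, 7.64, 0.230 and 0.637 CPM in Tumor libraries (-9.15 ± 0.74). Dsg2, a desmosomal cadherin, was at 275, 324, 333, 422 and 503 CPM in TdLN and 0.491, 0.289, 0.0281, 0.0862 and 0.116 CPM in Tumor libraries (-10.92 ± 0.48). Csf2rb2, a cytokine receptor subunit, was at 359, 338, 438, 370 and 350 CPM in TdLN and 0.696, 0.341, 0.478, 0.0575 and 0.203 CPM in Tumor libraries (-10.07 ± 0.43). For each of these 3 genes the highest Tumor value was under 8 CPM and the lowest TdLN value above 250 CPM. Astn1, Spint2, a protease inhibitor, and Slc16a9, a carnitine exporter, fell with -10.13 ± 0.46, -9.17 ± 0.38 and -9.08 ± 0.54. Serpina1b had 3 counts in all Tumor libraries together and stood at 36.1, 54.0, 63.3, 54.8 and 43.9 CPM in TdLN.

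Genes that fell on the library scale and were higher on the endothelial scale included many abundant ones. The 10 with the highest mean CPM among these 1460 were Igfbp4, Calr, Ctsd, Gnai2, Grn, Hsp90ab1, Hsp90b1, Hspa5, Laptm4a and Pdia3. Ctsd, a lysosomal protease, was at 4246, 4039, 3929, 3816 and 3325 CPM in TdLN and 2445, 2155, 2030, 2326 and 2308 CPM in Tumor libraries, with log2 fold changes of -0.78 ± 0.12 on the library scale and 0.69 on the endothelial scale. Hspa5, the chaperone BiP, had -0.32 ± 0.12 and 1.14, and Grn, the precursor of granulins, -0.65 ± 0.09 and 0.82. The library-scale call of Igfbp4, which fell with -0.71 ± 0.27, was lost without any 1 of TdLN 1, 2 and 4 and Tumor 1, 4 and 5 (-0.58 to -0.69). That of Hspa5 was lost without any 1 of TdLN 1 and 3 and Tumor 3 and 4 (-0.26 to -0.33), and that of Pdia3 without TdLN 1 (-0.22). The direction of such genes follows the choice of reference.

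Some genes varied widely within each group. Among genes with a mean of at least 50 CPM in Tumor, the 10 with the widest spread over the Tumor libraries (SD of log2 CPM) were Col1a1, Alyref, Csnk1g2, Dusp2, Jund, Mtch1, Oaf, Rac1, Srsf2 and Yrdc. In 9 of them, all but Col1a1, TdLN libraries 4 and 5 stood above TdLN 1 to 3, and Tumor libraries 1 to 3 stood above Tumor 4 and 5. Rac1, a GTPase of the cytoskeleton, was at 74.2, 110, 42.8, 847 and 430 CPM in TdLN and 573, 623, 527, 80.3 and 43.4 CPM in Tumor libraries (0.30 ± 0.86, edgeR adjusted p = 0.783). Jund, a subunit of AP-1, was at 29.4, 51.8, 12.1, 513 and 287 CPM in TdLN and 52.8, 127, 145, 22.5 and 8.69 CPM in Tumor libraries (-1.33 ± 1.04). Alyref, which exports mRNA, was at 12.6, 13, 8.78, 120 and 41.9 CPM in TdLN and 357, 235, 143, 21.3 and 17.5 CPM in Tumor libraries (1.98 ± 0.85), and was called higher without any 1 of TdLN 4 (3.02), Tumor 4 (2.24) and Tumor 5 (2.27). Csnk1g2, Mtch1 and Yrdc were called higher without TdLN 4 (2.17, 2.08 and 2.6). With all libraries, Col1a1, Oaf and Srsf2 rose. The call of Oaf (2.32 ± 0.82) was lost without any 1 of TdLN 1 and 2 and Tumor 1 and 2 (1.94 to 2.15). That of Srsf2 (1.90 ± 0.77) was lost without any 1 of TdLN 1, 2, 3 and 5 and Tumor 1 to 3 (1.43 to 1.95). Which property of the libraries this split follows was not tested.

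**Figure D5:**
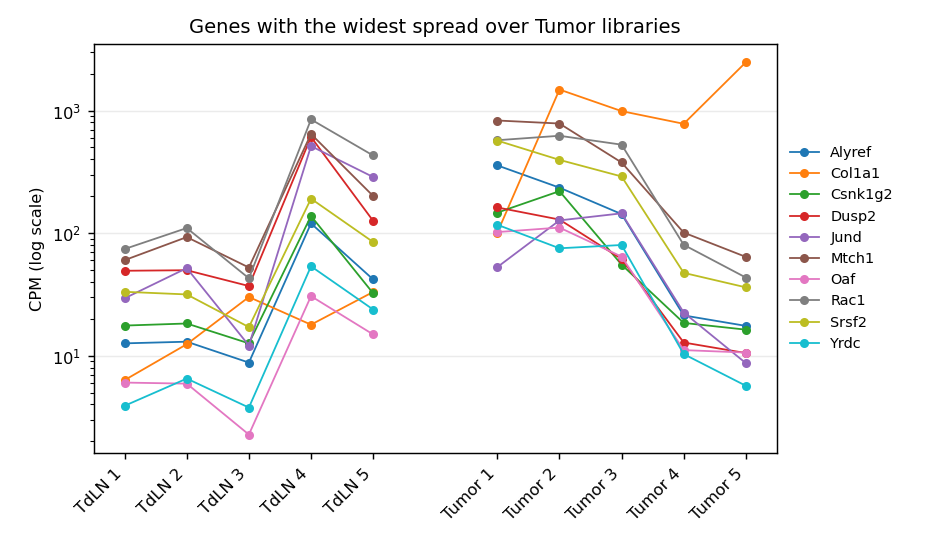
Level (CPM, log axis) of the 10 genes with the widest spread among the Tumor libraries, out of those with a mean of at least 50 CPM there, in each TdLN and Tumor library, with a line joining the values of each gene. Rac1 runs from 42.8 to 847 CPM within TdLN and from 43.4 to 623 CPM within Tumor libraries, and 9 of the 10 genes share the split of TdLN 4 and 5 from TdLN 1 to 3 and of Tumor 1 to 3 from Tumor 4 and 5.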

How the data were processed

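RNA was measured in lymphatic endothelial cells sorted from melanomas (Tumor) and tumor-draining lymph nodes (TdLN), 5 libraries each. Per the labels' protocols, cDNA was made with the SMARTer Ultra Low kit from 1 ng of RNA and sequenced as single reads. The submitters' processing notes name CASAVA 1.8.2, STAR 2.4, featureCounts 1.4.6 and GRCm38, and the authors deposited raw counts per gene. Whether counting used strand is not given in the sources used here, so reads of genes that overlap on opposite strands cannot be told apart.

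Everything else was computed from these counts. edgeR 4.0.16 in R 4.3.3 (filterByExpr, TMM factors, robust quasi-likelihood fit) was fitted to all 15 libraries, with the contrast Tumor minus TdLN. Calls used Benjamini-Hochberg adjusted p under 0.05 over 13887 genes, with glmTreat for a fold of 2. An endothelial scale replaced the factors by the geometric mean of CPM + 0.5 over 24 pan-endothelial genes. SE of log2 fold changes came from the F statistic. Values measured per library are CPM, means are given with SD over 5 libraries, and shares were compared by an exact two-sided permutation test over libraries. Gene positions are those of GRCm38 with GENCODE M21, in which 21628 of the 21839 gene IDs were found. Of 629 list genes 627 were in the table. The fit was also run on simulated counts with known folds in a small set of genes and a spread shared by all genes. That run does not cover a contrast in which most genes change. Same-numbered Tumor and TdLN libraries did not deviate together (correlations of -0.039 to -0.21). This cannot tell whether they came from the same mouse, which the sources used here do not say. The main fit held no pairs. No pair of libraries agreed within sampling noise.

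The members and the 34 function and 15 marker lists were chosen with earlier results of these data known. Named genes were, per list, some or all of the called members with the 3 highest and 3 lowest log2 fold changes and those a sentence is about. Others were the 12 highest and 12 lowest among genes called over 2-fold on either scale with at least 50 CPM and no overlap, the 10 most abundant with opposite calls on the scales, and the 10 of widest spread in Tumor with a mean of at least 50 CPM there. Promoter windows came from RefSeq (GRCm38.p6), 7 motifs were counted on both strands, and the 3 shown were chosen after their counts were seen. Alternatives covered factors, filters, libraries in the fit, a replicate block, DESeq2 1.42.0, limma 3.58.1 and leaving out each library.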

Additional observations from a re-analysis of the deposited data

Results flagged for a closer look

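A single library lay apart from the other 4 of its group, by more than the 95% limit of Dixon's test, in 25 of 430 groups examined (5.81%), over the genes named above and 12 list shares. Chance flags about 1 in 20 groups, and no cause was tested. Among TdLN libraries, TdLN 4 stood apart most often, in 8 groups. It was highest for Csnk1g2 (138 CPM, others 12.6 to 32.3), Dusp2 (609, others 37 to 126), Mtch1 (644, others 52.4 to 201), Spns2 (408, others 103 to 131), Igfbp3 (40.7, others 1.59 to 4.93) and Egln3 (9.13, others 5.19 to 5.78). It was lowest for Nos3 (366 CPM, others 446 to 470) and Pdpn (93.6, others 123 to 134). TdLN 1 was highest for Kit (32.3 CPM, others 22.7 to 24.4) and lowest for Gata2 (78.8, others 96 to 102) and Il6 (1.79, others 3.1 to 3.48). TdLN 3 was highest for Cxcl9 (366 CPM, others 85.4 to 129) and for the macrophage and monocyte share (0.00468% of counts, others 0.00124% to 0.00156%). TdLN 5 was highest for Hoxa10 (2.21 CPM, others 0.732 to 0.945).

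Among Tumor libraries, Tumor 1 was lowest for Cd276 (61 CPM, others 174 to 211), Nfkb2 (22.3, others 46.1 to 54.3) and Tgfbr2 (245, others 459 to 525). It was highest for Gapdh (160 CPM, others 112 to 125) and for the macrophage and monocyte share (0.0248% of counts, others 0.0114% to 0.0149%). Tumor 5 was highest for C4b (331 CPM, others 37.9 to 107), Ciita (43.9, others 5.09 to 10.9), Igfbp6 (164, others 29 to 61.5) and Serping1 (548, others 214 to 285), and lowest for Btnl9 (32.9, others 54 to 62.3). Tumor 2 was highest for Spns2 (63.7 CPM, others 12.1 to 23.4).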

How the results depend on the processing

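The number of genes changed stayed within 1.5 times of 8614 under all 21 settings, from 5812 to 9024, and between 8207 and 8557 when 1 library was left out. Upper quartile factors moved its split to 4169 higher and 4370 lower. Genes changed by over 2-fold numbered 3390 to 3673 with 1 library left out and 2158 with a stricter filter (10 CPM in 5 libraries), which tests fewer genes. Relative to the endothelial genes, 7686 to 8380 genes changed by over 2-fold with 1 library left out, against 8062 with all. Factors from the lymphatic identity genes gave 5130 (4242 higher, 888 lower), and the cause was not tested. The difference in melanosome share, 3.67 percentage points, was 3.52 to 3.9 with 1 library left out and 0.322 without the 10 most abundant genes of each library. With same-numbered libraries taken as pairs (replicate block), the difference was 3.67 with an exact sign-flip p of 0.0625, the smallest that 5 pairs can give. The replicate block left 8381 genes changed, 3510 over 2-fold and 7798 on the endothelial scale. It ended the calls of Foxc2, Igfbp4, Oaf and Srsf2 and made calls of Id1 and Mki67, and no other named gene changed its call. Whether same-numbered libraries came from the same mouse is not given, so the fits with and without the block cannot be ranked. Of 4634 pairs of a named gene and a setting, 85 lost a call, 51 gained one and none turned its sign after a call. Limma voom did not call Foxc2, Il6, Oaf and Srsf2 and called Ddit4, Erbb3, Id1, Mki67, Rela and Scarb1, and DESeq2 called Alyref, Id1, Klf2 and Rela. Chosen after seeing the data, 2 fits used only the 5 libraries high (TdLN 4 and 5, Tumor 1 to 3) or low in the genes of wide spread. Over the 222 named genes tested, each fit ended 18 calls, and the fit of the high libraries made 7 new calls and that of the low libraries 8. In the low libraries Kcnj8 went to 0.01. Totals of 23830337 counts or more leave genes under about 1 CPM as the least precise.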

Other observations

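The remaining marker lists were low in both groups. Markers of T and NK cells took 0.00429% of counts in TdLN and 0.00216% in Tumor libraries, and those of B and plasma cells 0.0257% and 0.0103%. Of 7 T and NK cell markers tested 2 fell and none rose, and of 7 B and plasma cell markers 3 fell and 1 rose. Neutrophil and mast cell markers took 0.000115% and 7.44e-05%, and keratinocyte markers 0.000275% and 0.000444%. Adipocyte markers took 2.01e-05% and 8.61e-05%, skeletal muscle markers 5.42e-05% and 0.000368%, and red cell markers 0.000591% and 0.00136%, each as the mean of 5 TdLN and of 5 Tumor libraries.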
